A study of Mus musculus with 4 samples.

Results

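The genes described here are 41 liver-made members of the complement, coagulation and fibrinolysis systems, picked by gene symbol from the 25655 genes of the deposited count table. All 41 were found and all 41 passed the filter on low counts, as did 12967 genes in all. They were measured by RNA-seq of whole liver in male mice, as far as the study states the sex, on a B6129S background. The mice were fed a high-fat diet (HFD) for 12 weeks from the age of 5 weeks. The HFD-WT group was ADAR2+/+/GluR-B R/R and the HFD-KO group was ADAR2-/-/GluR-B R/R, so both groups carried the GluR-B R/R allele, which encodes the edited form of a glutamate receptor subunit and rescues the early death of mice that lack the RNA-editing enzyme ADAR2. The knockout is not restricted to hepatocytes, and both genotypes came from crosses of heterozygous mice. Each group had 2 libraries, and whether a library came from 1 mouse or from several was not given in the sources used here, although a figure legend of the study names more mice per group than there are libraries, so the p-values measure only the spread between these libraries. Chow-fed mice were not analysed here, and no comparison of diets was made.

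Complement and coagulation are cascades of proenzymes in plasma, in which each protease cuts and activates the next one. In complement, recognition proteins and their proteases lead to convertases that cleave C3 and C5, and the terminal components then assemble a pore in the target membrane. In coagulation, the contact and tissue factor routes lead to thrombin, which turns fibrinogen into fibrin, and plasmin later dissolves the clot. Hepatocytes secrete most of these proteins, and the genes of several of them, fibrinogen and C3 among them, are known to answer to IL-6 and related signals in the acute phase response.

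The groups were checked first. Adarb1, the gene of ADAR2, was measured at 15.7 and 19.8 CPM, the counts scaled to a common library size, in HFD-WT and at 6.23 and 9.55 CPM in HFD-KO, a log2 fold change of -1.17 (adjusted p = 0.159). Both HFD-KO libraries lay below both HFD-WT libraries, but reads of the gene remained in HFD-KO, and which exons the allele lacks was not given in the sources used here. Gria2, the gene of GluR-B, had no read in any library, so the shared allele could not be checked in liver. The total count per library was between 24480798 and 28691330, at which 3 counts correspond to 0.105 to 0.123 CPM. The hepatocyte markers were abundant in every library, with Alb, the gene of albumin, at 52676 to 66104 CPM. Because whole liver was measured, fewer cells of a type and less RNA per cell cannot be told apart. HFD-KO replicate 2 stood apart in several lists of liver genes, and values without it are given below for the members whose direction it decides.

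Neighbouring members that encode chains of 1 protein are shown by the 250 bases before their transcription starts, because the chains of each set had similar differences between the groups. The sequences are from RefSeq (build GRCm38.p6), are written on the strand of the gene and run 5′ to 3′, with matches to the motifs searched in capitals. The first set is fibrinogen, at chr3:83025903-83026152 on the plus strand for Fga, chr3:83049864-83050113 on the minus strand for Fgb and chr3:83007474-83007723 on the plus strand for Fgg.
Fga: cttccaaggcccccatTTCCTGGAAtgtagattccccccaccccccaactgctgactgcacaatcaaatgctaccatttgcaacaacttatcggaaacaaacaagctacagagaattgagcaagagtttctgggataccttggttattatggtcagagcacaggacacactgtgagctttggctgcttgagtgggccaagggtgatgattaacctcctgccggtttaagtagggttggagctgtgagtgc
Fgb: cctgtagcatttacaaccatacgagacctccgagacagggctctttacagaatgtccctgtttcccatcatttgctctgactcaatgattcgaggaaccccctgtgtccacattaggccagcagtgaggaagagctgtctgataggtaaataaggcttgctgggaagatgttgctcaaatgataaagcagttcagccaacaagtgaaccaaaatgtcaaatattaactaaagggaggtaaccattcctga
Fgg: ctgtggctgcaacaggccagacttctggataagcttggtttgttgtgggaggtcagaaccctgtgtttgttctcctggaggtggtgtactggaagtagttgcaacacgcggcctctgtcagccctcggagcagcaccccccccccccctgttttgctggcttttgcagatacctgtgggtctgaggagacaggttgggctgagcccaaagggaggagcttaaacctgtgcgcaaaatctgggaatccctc
The second set is complement C8, at chr4:104876399-104876648 on the minus strand for C8a and chr4:104766067-104766316 on the plus strand for C8b.
C8a: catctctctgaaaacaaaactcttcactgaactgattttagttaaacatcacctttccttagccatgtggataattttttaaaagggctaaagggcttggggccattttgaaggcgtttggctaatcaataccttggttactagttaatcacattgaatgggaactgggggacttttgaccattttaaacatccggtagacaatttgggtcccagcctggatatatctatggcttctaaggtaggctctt
C8b: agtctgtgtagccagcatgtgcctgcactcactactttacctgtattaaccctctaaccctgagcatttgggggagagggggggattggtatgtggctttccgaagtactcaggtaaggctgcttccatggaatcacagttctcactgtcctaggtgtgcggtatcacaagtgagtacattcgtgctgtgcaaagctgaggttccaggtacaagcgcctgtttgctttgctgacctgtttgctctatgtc

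The capitals in Fga mark a match to the STAT3 motif TTCCNGGAA at bases -234 to -226 from the start, and the other 4 stretches hold none of the motifs searched. HNF1 motifs were not among those searched, so the lack of capitals says nothing about them. STAT3 carries the signal of IL-6 to the nucleus. Windows of 300 bases, 250 before and 50 after the start, were available for 32 of the 41 members and for 32851 transcription starts in all, and both strands were searched. A member was counted once if any of its windows held the motif. The shares of all windows count each transcription start, so the units differ. The STAT3 motif was present in Fga and Pros1 (6.25%, against 1.15% of all windows), and the C/EBP motif TTNNGCAAT in C1s1, C9 and Cpb2 (9.38%, against 2.18%). The TATA box TATAAA was present in C3, Hc, Klkb1 and Vtn (12.5%, against 13.6%). No member window held the HNF4 motif CAAAGTCCA (0.475% of all windows), the C/EBP motif TTGCGCAA (0.183%), the HNF4 direct repeat or the glucocorticoid response element. The 2 C/EBP motifs can share bases.

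The levels of these genes spanned more than 2 orders of magnitude. On the RPKM scale, which divides the counts by exon length and library size, C3 was the most abundant member with a mean of 1368 over the 4 libraries, before Fga with 1050.0, Fgg with 959, Vtn with 945 and F2 with 801. C3 is the component on which all complement routes meet, Vtn encodes vitronectin, which blocks the terminal pore, and F2 encodes prothrombin. The lowest members were Cfd with a mean RPKM of 4.81, F11 with 14.3 and Masp1 with 15.5. The 41 genes together took 3.64% and 3.52% of all counts in HFD-WT and 3.52% and 4.47% in HFD-KO, so that 3 libraries were nearly equal and HFD-KO replicate 2 was higher. The difference of the group means was 0.415 percentage points, and an exact two-sided permutation test over the libraries gave p = 1, with 0.333 as the smallest p that 2 against 2 libraries allow.

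**Figure D1:**
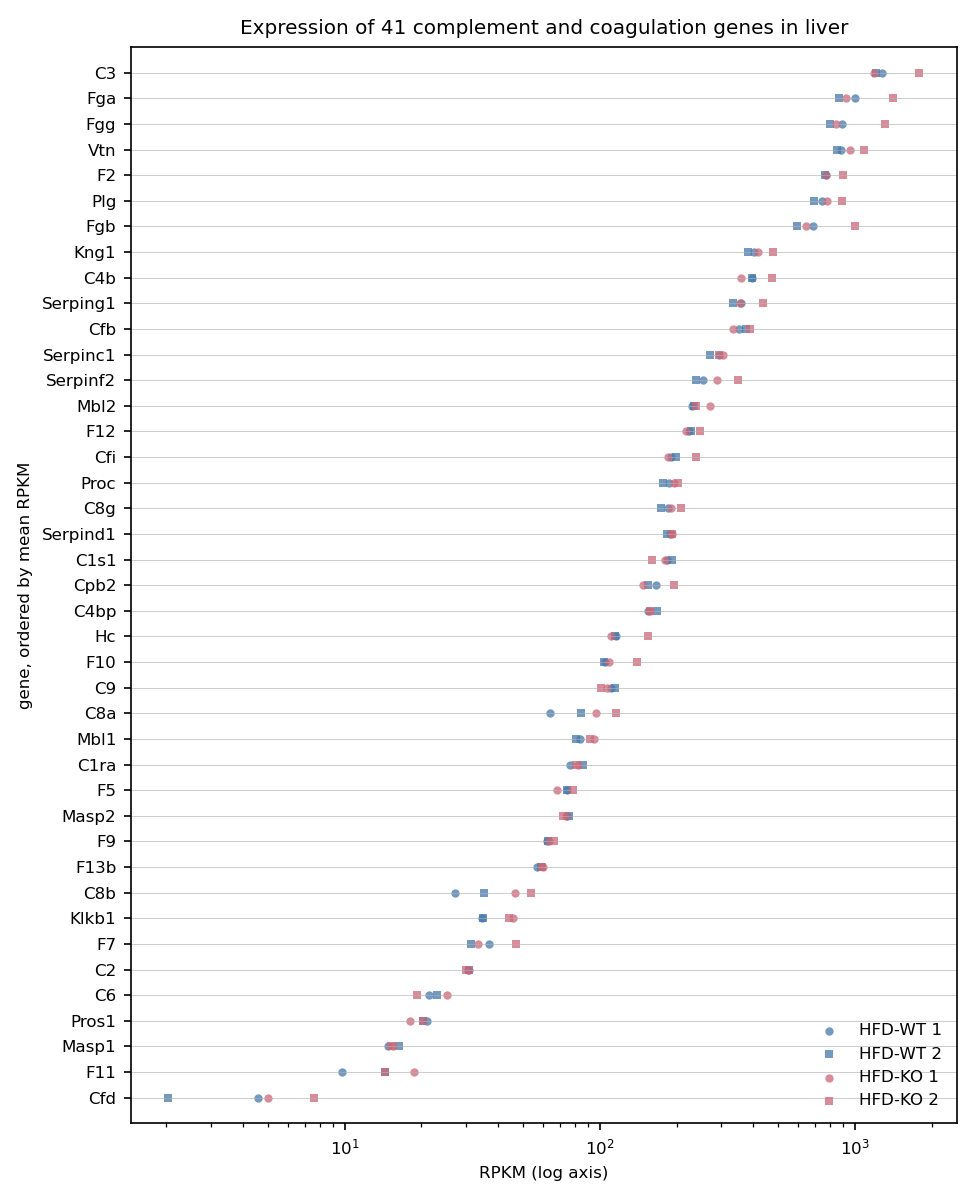
RPKM (log axis) of each of the 41 genes, ordered by the mean over the 4 libraries, with 1 point per library (circles replicate 1, squares replicate 2, blue HFD-WT, red HFD-KO). C3 stands highest with 1193 to 1791 RPKM and Cfd lowest with 2.04 to 7.6 RPKM, and the square of HFD-KO replicate 2 lies to the right of the other points in most of the abundant genes.

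None of the 41 members differed between HFD-KO and HFD-WT at an adjusted p under 0.05 by edgeR's quasi-likelihood test, a threshold that 10 of all genes tested (0.0771%) passed. At an unadjusted p under 0.05, 7 members were higher in HFD-KO (C8b, Klkb1, C8a, Serpinf2, Cfd, F11 and Mbl1) and 0 were lower, while the shares over all genes were 4.25% higher and 4.73% lower. DESeq2's Wald test called 2 members at an adjusted p under 0.05 (C8b and Klkb1) among 115 genes (0.887%), and edgeR with no filter on low counts called 1 (C8b) among 162 (0.936%). The log2 fold change was positive in 31 members and negative in 10, with a median of 0.12 against 0.01 over all genes, and ranged from -0.14 for C1s1 to 0.92 for Cfd. Both HFD-KO libraries lay above both HFD-WT libraries in 18 members, where 20.5% of all genes did, and below them in 3 members (C1s1, Masp2 and C9), where 20.3% did. With scaling by library size alone, which moved the median gene by -0.05, 26 members were positive and these counts were 12 above and 6 below. The shares of all genes above and below were not computed with that scaling. Over all genes 346 instead of 551 were higher and 894 instead of 613 lower at an unadjusted p under 0.05 with it. The 95% interval of the log2 fold change lay within -1 to 1 in every member except Cfd, and in 83.4% of all genes. It lay within -0.5 to 0.5 in 28 of the 41, and in 7550 of all 12967 genes. A doubling was thus outside the interval for 40 members, but for C8b only narrowly, with an upper end of 0.997.

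**Figure D2:**
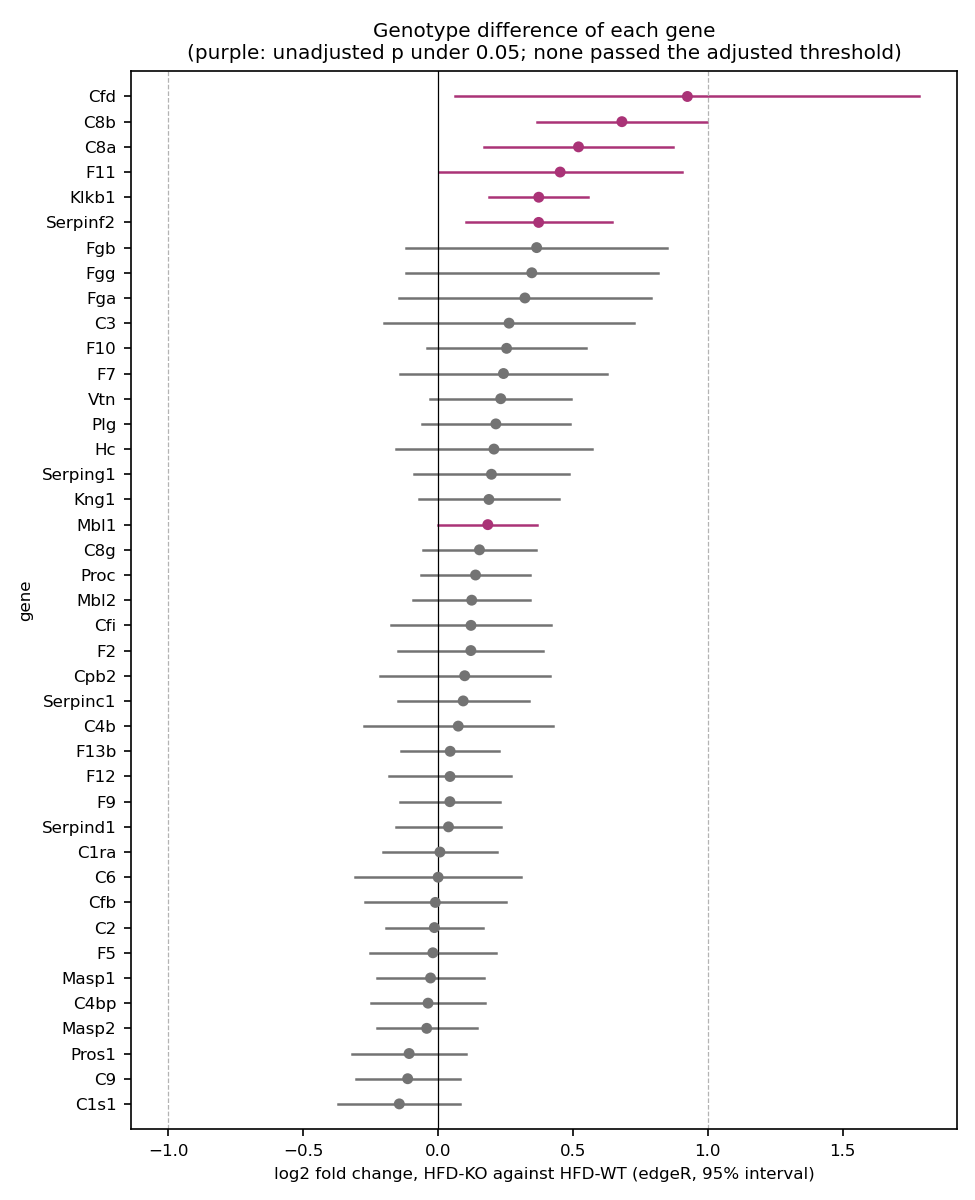
Log2 fold change of each gene, HFD-KO against HFD-WT, from edgeR's quasi-likelihood test with its 95% interval, ordered by size. The 7 genes in purple had an unadjusted p under 0.05, none passed the adjusted threshold, and only the interval of Cfd, 0.06 to 1.78, extends beyond 1.

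Much of the positive shift moved with 1 library. HFD-KO replicate 2 had the highest value of the 4 libraries in 25 of the 41 members (61%), against 29.3% of all genes. That share was 86.4% of acute phase proteins outside the list, 58.3% of hepatic transcription factors and 57.1% of IL-6 and gp130 signalling genes. It was 44.7% of the other coagulation and fibrinolysis genes and 18.8% of the other complement genes. The median ratio of a member to its HFD-WT mean was 1.17 in HFD-KO replicate 2 and 1.01 in HFD-KO replicate 1, and over all genes both medians were 1. Among the 20 members most abundant per length the highest library was HFD-KO replicate 2 in 16, with a median ratio of 1.21, and among the 21 least abundant it was so in 9, with a median ratio of 1.05. The median log2 fold change of the members was 0.23 without HFD-KO replicate 1 and 0.01 without HFD-KO replicate 2. Without HFD-KO replicate 2, 24 members were positive, and the remaining HFD-KO library lay above both HFD-WT libraries in 21 members and below both in 12. The shares of all genes given above are for 2 libraries against 2 and were not computed without HFD-KO replicate 2. The sign of 11 members differed in that setting, among them C4b (-0.15), Cpb2 (-0.12), Cfi (-0.07), Hc (-0.06), F12 (-0.05) and F7 (-0.03), which turned negative. C6 (0.18) and C2 (0.01) turned positive. Without HFD-KO replicate 2 the members as a whole thus lay close to the median of all genes.

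**Figure D3:**
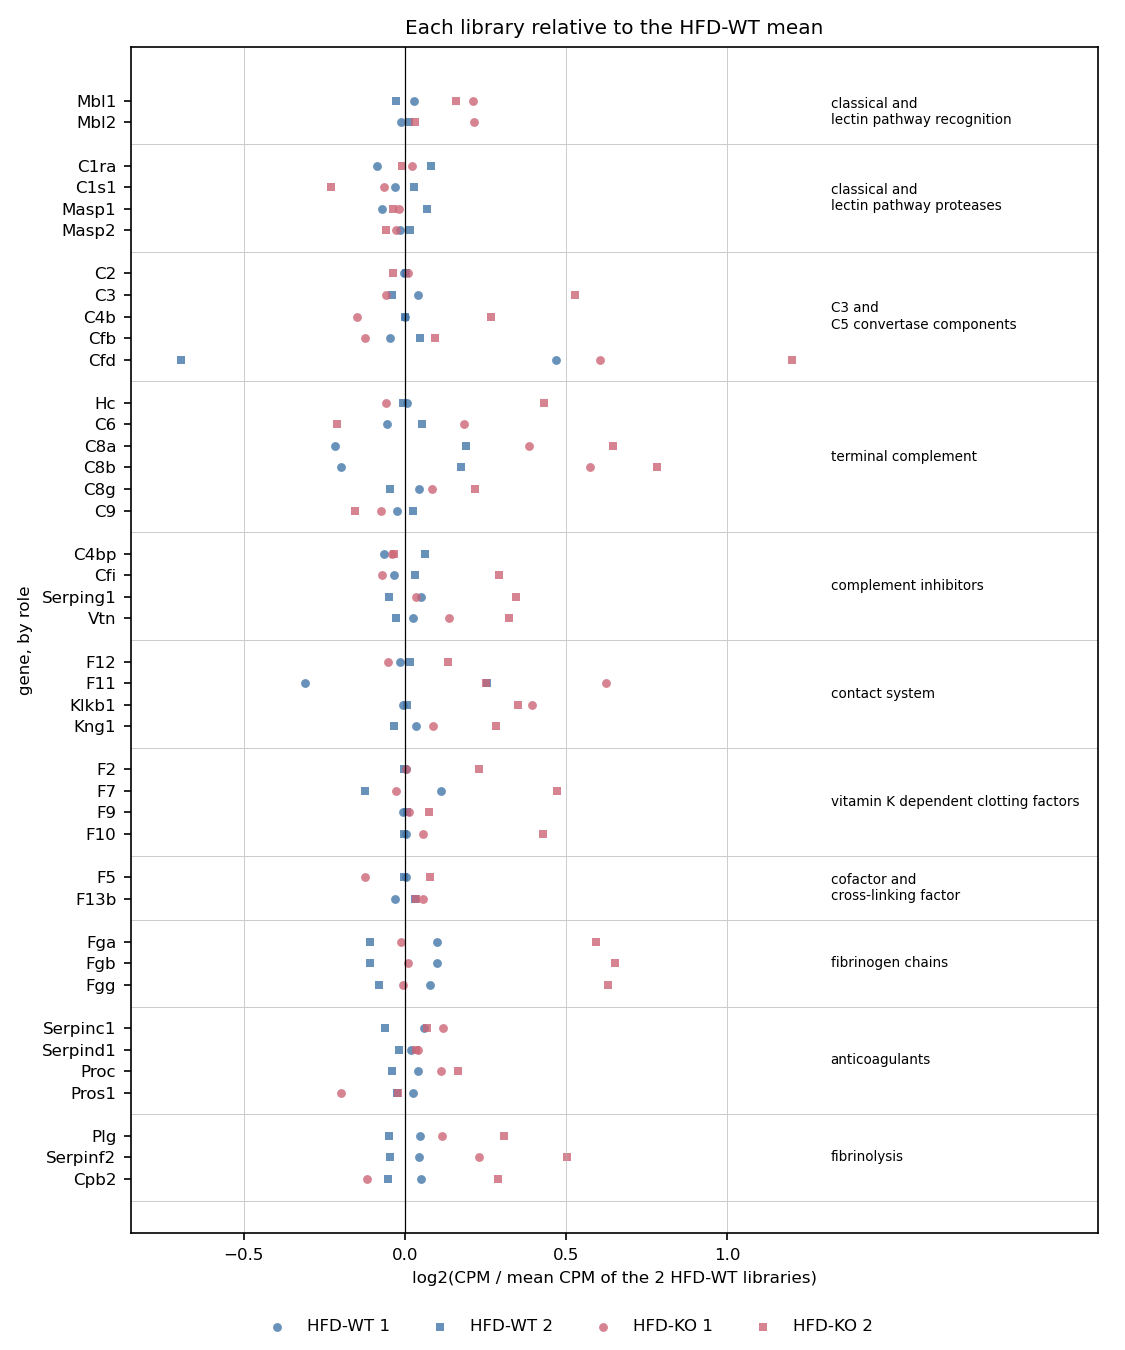
Log2 ratio of each library's CPM to the mean of the 2 HFD-WT libraries, by gene and role, with 1 point per library (circles replicate 1, squares replicate 2, blue HFD-WT, red HFD-KO). In C3, Hc, the 3 fibrinogen chains, F7 and F10 only HFD-KO replicate 2 lies far to the right, while in C8a, C8b and Klkb1 both HFD-KO libraries lie to the right of both HFD-WT libraries.

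The recognition molecules of the lectin pathway, the mannose-binding lectins, bind sugars on microbial surfaces. Mbl1 was measured at 142 and 137 CPM in HFD-WT and at 161 and 156 CPM in HFD-KO, a log2 fold change of 0.18 (SE 0.08, adjusted p = 0.554). The groups did not overlap, and the difference was small but larger than the spread within either group. Mbl2, the more abundant of the pair per length, had 272 and 277 CPM in HFD-WT and 318 and 280.3 CPM in HFD-KO, with HFD-KO replicate 2 close to HFD-WT (log2 fold change 0.12, adjusted p = 0.731).

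The proteases that these molecules and C1q activate showed almost no difference. C1s1, the C1s protease that cleaves C4 and C2, had 595 and 620.3 CPM in HFD-WT and 582 and 518 CPM in HFD-KO. Its log2 fold change of -0.14 (SE 0.10, adjusted p = 0.707) was the most negative of all members. C1ra, the C1r protease that activates C1s, had 246 and 277 CPM in HFD-WT and 266 and 260.1 CPM in HFD-KO, with overlapping groups. The RPKM ratio of C1s1 to C1ra was 2.41 and 2.23 in HFD-WT and 2.18 and 1.99 in HFD-KO. Masp1 and Masp2, the proteases of the lectin pathway, had log2 fold changes of -0.03 and -0.04. The nearly identical copies C1rb and C1s2 had at most 10 and 4 reads in a library. How reads that align to both copies were treated was not given, so their part in the values of C1ra and C1s1 is uncertain.

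Among the components that form the C3 and C5 convertases, the 4 members other than Cfd had log2 fold changes between -0.01 and 0.26. C3 was measured at 7102 and 6717 CPM in HFD-WT and at 6629.8 and 9952 CPM in HFD-KO. HFD-KO replicate 1 was the lowest of the 4 libraries and HFD-KO replicate 2 the highest. The log2 fold change of 0.26 (SE 0.20, adjusted p = 0.735) became 0.53 without HFD-KO replicate 1 and -0.06 without HFD-KO replicate 2. C4b showed the same order, with 2310.0 and 2312 CPM in HFD-WT and 2086 and 2781 CPM in HFD-KO. C4b has a close copy, C4a, which was not analysed here, so the share of its reads that belongs to C4a is uncertain. C2 and Cfb, which supply the protease of the classical and of the alternative convertase and lie 85 bases apart on chromosome 17, had log2 fold changes of -0.01 each. C2 varied least of all members, with the highest library 1.03 times the lowest.

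Cfd, complement factor D or adipsin, is the protease that cleaves factor B and is mainly a product of adipocytes. It was measured at 4.56 and 2.04 CPM in HFD-WT and at 5.01 and 7.58 CPM in HFD-KO, from 132, 56, 132 and 181 reads. Both HFD-KO libraries lay above both HFD-WT libraries, but HFD-WT replicate 1 and HFD-KO replicate 1 were close to each other. The log2 fold change of 0.92 (SE 0.37, 95% interval 0.06 to 1.78, adjusted p = 0.518) was the largest of the members and ranged from 0.47 without HFD-WT replicate 2 to 1.62 without HFD-WT replicate 1. Of 8 adipocyte markers, 4 passed the filter on low counts, and the adipocyte-defining Adipoq, Plin1, Retn and Lep were at 0 to 0.152 CPM in all 4 libraries. The other 4 were Car3, Cidec, Plin4 and Aqp7, of which hepatocytes also make at least Car3 and Cidec. The summed level of these markers was 2505 and 2916 CPM in HFD-WT and 3716 and 1873 CPM in HFD-KO, most of it Car3. For Cidec and Plin4 the HFD-KO libraries lay below HFD-WT without overlap, with log2 fold changes of -0.77 and -0.46 (adjusted p = 0.168 and 0.136). Cfd was the only member on chromosome 10, the chromosome of Adarb1, and the genes lay 2.47 megabases apart.

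The terminal components held the member with the lowest p. C8b, the beta chain of C8, which joins the pore after C7, was measured at 65.8 and 85.1 CPM in HFD-WT and at 112 and 129.7 CPM in HFD-KO. The groups were separate, and the log2 fold change was 0.68 (SE 0.13, adjusted p = 0.225). C8a, the alpha chain, had 251 and 333 CPM in HFD-WT and 382 and 457 CPM in HFD-KO, with a log2 fold change of 0.52 (SE 0.15, adjusted p = 0.377). Both chains were higher in HFD-KO by more than the spread within the groups. Leaving out each library in turn gave 0.50 to 0.88 for C8b and 0.33 to 0.74 for C8a, so neither difference rested on HFD-KO replicate 2 alone. By DESeq2 the adjusted p of C8b was 0.0023, and without the filter on low counts the adjusted p by edgeR was 0.0126.

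C8a and C8b lie on chromosome 4 at 104672876-104733595 (minus strand) and 104623514-104661745 (plus strand) in the coordinates of the table (GRCm39), with 11130 bases between their ends. Their RPKM ratio, C8b to C8a, was 0.425 and 0.415 in HFD-WT and 0.478 and 0.461 in HFD-KO, so the pair varied almost in parallel. C8g, the gamma chain, a lipocalin encoded on chromosome 2, had 269 and 253 CPM in HFD-WT and 277 and 304 CPM in HFD-KO (log2 fold change 0.15, SE 0.09, adjusted p = 0.668). Its RPKM ratio to C8a was 2.9 and 2.05 in HFD-WT and 1.96 and 1.8 in HFD-KO, so that the 3 chains of C8 did not keep 1 ratio. C8g overlaps Fbxw5 on the other strand, and whether strand was used in the counting was not given in the sources used here. Masp2 overlaps Tardbp and Serpind1 overlaps Pi4ka in the same way, with at most 1966 and 2012 reads of those genes in a library. Other members overlap genes with fewer reads.

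Hc, the gene of C5, had 681 and 675 CPM in HFD-WT and 651 and 914 CPM in HFD-KO, the pattern of C3 with HFD-KO replicate 1 lowest and HFD-KO replicate 2 highest. C6 and C9, the other members of the pore, had log2 fold changes of -0.00014 and -0.11, and in both HFD-KO replicate 2 was the lowest library. For C6 HFD-KO replicate 1 was the highest library, and the log2 fold change was 0.18 without HFD-KO replicate 2 and -0.21 without HFD-KO replicate 1. The members of the terminal pathway therefore did not share 1 pattern across the libraries. Among the complement inhibitors, Vtn had 1671 and 1611 CPM in HFD-WT and 1804 and 2050.3 CPM in HFD-KO (log2 fold change 0.23, SE 0.11, adjusted p = 0.606). Serping1, the C1 inhibitor that also blocks kallikrein and factor XIIa, and Cfi, the protease that inactivates C3b, had log2 fold changes of 0.20 and 0.12, with HFD-KO replicate 2 highest in both. C4bp, the cofactor that binds C4b, was at -0.04.

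In the contact system, which starts coagulation on charged surfaces and releases bradykinin, Klkb1 had the second lowest p of the members. Klkb1 encodes plasma prekallikrein and was measured at 196 and 197 CPM in HFD-WT and at 259 and 251 CPM in HFD-KO. The libraries of a group nearly coincided, and the log2 fold change was 0.37 (SE 0.08, adjusted p = 0.233). With any 1 library left out it was 0.35 to 0.39, and the adjusted p was 0.0301 by DESeq2. F11, the related factor XI, lies 4657 bases from Klkb1 on chromosome 8 and had 23.7 and 35 CPM in HFD-WT and 45.2 and 35 CPM in HFD-KO. Its groups overlapped, HFD-KO replicate 2 being slightly below HFD-WT replicate 2, with a log2 fold change of 0.45 (SE 0.19, adjusted p = 0.551). Leaving out a library moved F11 between 0.19 and 0.76, and the RPKM ratio of F11 to Klkb1 was 0.283 and 0.415 in HFD-WT and 0.41 and 0.326 in HFD-KO. Kng1, the kininogen from which kallikrein cuts bradykinin, had 1411 and 1346 CPM in HFD-WT and 1464 and 1678 CPM in HFD-KO (log2 fold change 0.19, adjusted p = 0.669). F12, the factor that starts the system, was at 0.04 with overlapping groups.

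**Figure D4:**
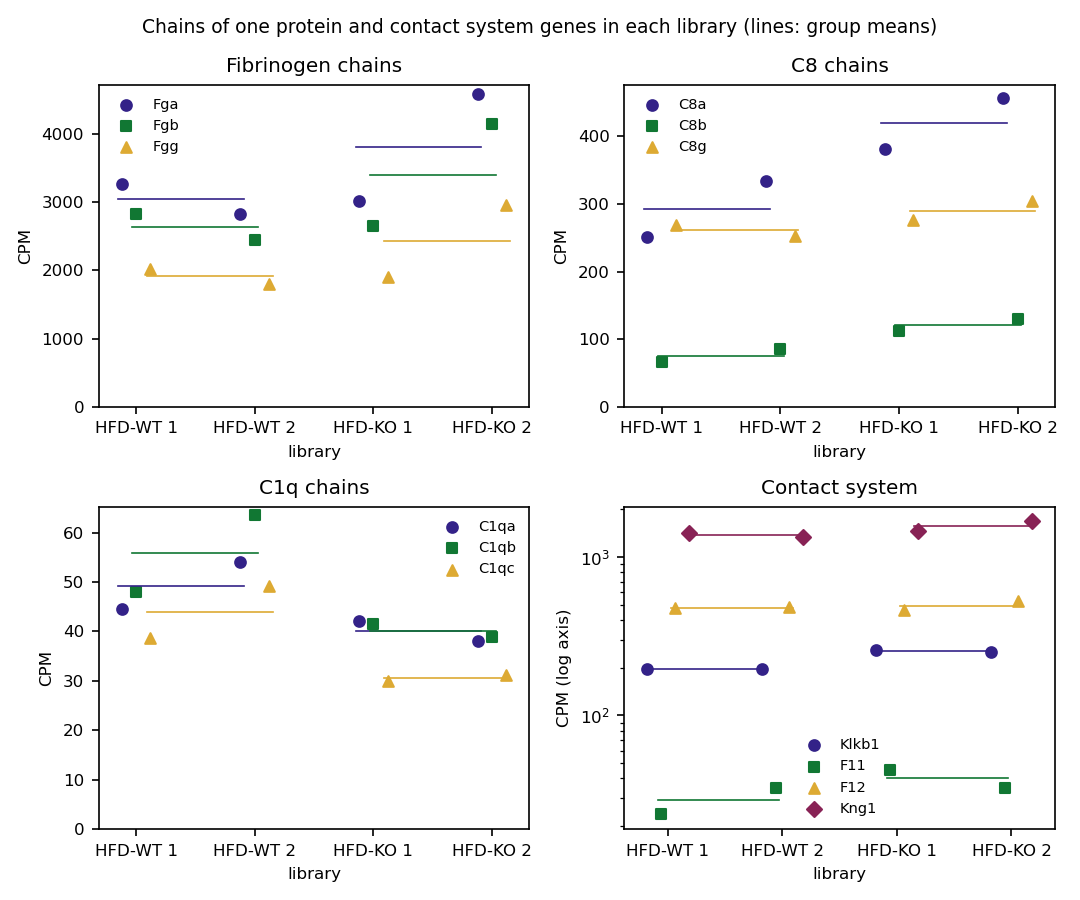
CPM of the fibrinogen chains, the C8 chains, the C1q chains and the contact system genes in each library (the last panel on a log axis), with lines at the group means of 2 libraries. The fibrinogen chains stand out in HFD-KO replicate 2 alone, C8a and C8b are higher in both HFD-KO libraries, the C1q chains are lower in both HFD-KO libraries and Klkb1 shows 2 pairs of nearly equal points.

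The fibrinogen chains carried the clearest single-library pattern. Fga was measured at 3259 and 2820.5 CPM in HFD-WT and at 3015 and 4583 CPM in HFD-KO. Fgb had 2824 and 2444 CPM in HFD-WT and 2649.7 and 4136 CPM in HFD-KO. Fgg had 2016 and 1806 CPM in HFD-WT and 1903 and 2959 CPM in HFD-KO. In all 3 chains HFD-KO replicate 1 lay between the HFD-WT libraries and HFD-KO replicate 2 was 1.51 to 1.57 times the HFD-WT mean. The log2 fold changes were 0.32 for Fga, 0.37 for Fgb and 0.35 for Fgg, with adjusted p between 0.664 and 0.683. Without HFD-KO replicate 1 they were 0.59, 0.65 and 0.63, and without HFD-KO replicate 2 they were -0.01, 0.01 and -0.01. The proportions of the chains hardly moved, with an RPKM ratio of Fgb to Fga of 0.685 in both HFD-WT libraries and 0.694 and 0.713 in HFD-KO, and of Fgg to Fga between 0.89 and 0.929. The 3 genes lie together on chromosome 3, with Fga 11026 bases from Fgg and 6513 bases from Fgb.

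Of the vitamin K dependent clotting proteases, all 4 had positive log2 fold changes, from 0.04 for F9 to 0.25 for F10, and HFD-KO replicate 2 was the highest library in each. F2 had 1653 and 1646 CPM in HFD-WT and 1655 and 1934 CPM in HFD-KO, so that 3 libraries were nearly equal. F7, which starts the tissue factor route, and F10, whose genes lie 1498 bases apart on chromosome 8, were 1.39 and 1.35 times the HFD-WT mean in HFD-KO replicate 2 and 0.98 and 1.04 times in HFD-KO replicate 1. F5, the cofactor of factor Xa, had 599 and 597 CPM in HFD-WT and 549 and 631 CPM in HFD-KO, and its log2 fold change was -0.02. F13b, the carrier chain of the factor that cross-links fibrin, was at 0.04.

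The anticoagulants varied little. Serpinc1, antithrombin, had 1620.1 and 1491 CPM in HFD-WT and 1686 and 1631 CPM in HFD-KO (log2 fold change 0.09, SE 0.10, adjusted p = 0.832). Serpind1, heparin cofactor II, Proc, the protease that inactivates factors Va and VIIIa, and Pros1, its cofactor protein S, had log2 fold changes of 0.04, 0.14 and -0.11, and the range of Serpind1 over the libraries was 437 to 455 CPM. In this group HFD-KO replicate 2 was the highest library for Proc only.

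Of the fibrinolysis genes, Serpinf2, the main inhibitor of plasmin, was measured at 637 and 599 CPM in HFD-WT and at 724 and 875 CPM in HFD-KO. The groups were separate, with a log2 fold change of 0.37 (SE 0.12, adjusted p = 0.416) that was 0.23 without HFD-KO replicate 2. Plg, the gene of plasminogen, had 2211 and 2070.3 CPM in HFD-WT and 2318 and 2648 CPM in HFD-KO (log2 fold change 0.21, SE 0.12, adjusted p = 0.652). Cpb2, the carboxypeptidase that protects fibrin from plasmin, had overlapping groups at 0.10. Of the whole list, the 21 complement members had 7 genes with both HFD-KO libraries above and 3 with both below HFD-WT, and the 20 coagulation and fibrinolysis members had 11 above and 0 below, where 20.5% of all genes lay above and 20.3% below, and the difference between these lists was not tested.

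The other genes of these pathways were counted the same way, and 0 of them passed the adjusted threshold by edgeR. Of 32 other complement genes that were tested, 2 were higher in HFD-KO at an unadjusted p under 0.05 (Susd4 among them) and 7 were lower (Vsig4, C1qc, Itgax, C1qb, Cfp, C1qa and Colec11), beside 4.25% and 4.73% of all genes. Susd4, a complement inhibitor of the membrane, had 9.25 and 8.29 CPM in HFD-WT and 15 and 14.9 CPM in HFD-KO, with the lowest adjusted p of the list, 0.0871. The C1q chains, which macrophages make, had log2 fold changes of -0.30 for C1qa, -0.48 for C1qb and -0.53 for C1qc, with both HFD-KO libraries below both HFD-WT libraries. Beside them, 7 of 10 macrophage and Kupffer cell markers, C1qa and Vsig4 among them, were lower at an unadjusted p under 0.05, and the summed level of the 10 was 404 and 502 CPM in HFD-WT and 329 and 311 CPM in HFD-KO. The defining Kupffer cell marker Clec4f was at 52.5 and 64.3 CPM in HFD-WT and at 43.8 and 43.1 CPM in HFD-KO. The part of these cells in the lower C1q values was not tested.

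Of 38 other coagulation and fibrinolysis genes tested, 2 were higher (Cyp4f14 among them) and 7 lower (Anxa5, Gas6, Anxa2, F2r, Nqo1, Fgl2 and Plat) at an unadjusted p under 0.05, beside the same shares of all genes. Plat, the tissue plasminogen activator, had 1.73 and 1.71 CPM in HFD-WT and 1.06 and 1.05 CPM in HFD-KO. Anxa5, a protein that covers the lipids on which clotting enzymes assemble, had 234 and 255 CPM in HFD-WT and 172 and 157 CPM in HFD-KO (log2 fold change -0.57, SE 0.09, adjusted p = 0.115).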

How the data were processed

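Liver poly(A) RNA of 2 HFD-WT and 2 HFD-KO libraries was analysed. The authors extracted RNA with TRIzol, prepared directional libraries (MGI Tech), read both ends on a DNBSEQ-G400RS, aligned with the MGI tool to mm10 and counted by Partek Genomics Suite against GENCODE annotation. Gene positions in the table are those of GRCm39, and both builds are named in the submitters' processing notes. Use of strand and treatment of reads with several alignments were not given in the sources used here.

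The deposited counts are whole reads per gene without normalization and were the only values tested. The authors' RPKM values, per exon length and library size, gave the gene lengths, and RPKM printed here was recomputed from the counts with TMM library sizes. The authors' TPM values and the deposited CPM values, a score on an adjusted library size, were not used. CPM printed here was computed from the counts with TMM.

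Counts were fitted in R 4.3.3 with edgeR 4.0.16 (filterByExpr, TMM, quasi-likelihood test, two-sided, Benjamini-Hochberg over 12967 genes). DESeq2 1.42.0 and limma 3.58.1 (limma-trend, prior count 2) served as alternatives, beside other scalings, no filter, a replicate block and leaving out each library. The procedure was tested on simulated data. The chi-square of replicates over its degrees of freedom was 8.8 in HFD-WT and 34.1 in HFD-KO, more than counting error gives. The limit of 3 counts covers counting error only, while the intervals of fold changes include the spread between libraries. Promoter windows came from RefSeq (GRCm38.p6) and were not combined with positions of the table. Plots were drawn with matplotlib 3.10.9 (Python 3.11.15, pandas 2.3.3, numpy 2.4.6).

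The members and the gene lists were chosen with earlier results of these data known. Values per library were given for members with an unadjusted p under 0.05 or among the 10 largest log2 fold changes, the 3 most abundant, the most abundant of each of 11 roles and the chains of fibrinogen, C8, C1r and C1s. Of other lists, up to 6 genes were named by smallest p, except for results that are not reported here.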

Additional observations from a re-analysis of the deposited data

How the results depend on the processing

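The number of genes called at an adjusted p under 0.05, 10 by edgeR with TMM, was 6 with scaling by library size alone, 162 without the filter on low counts and 115 by DESeq2, and of the members 1 was called without the filter and 2 by DESeq2. With library size alone 6 members had both HFD-KO libraries below HFD-WT. The other complement genes that were higher at an unadjusted p under 0.05 numbered 1 with library size alone and 1 by DESeq2, and the other coagulation genes numbered 4 higher without the filter and 4 lower by DESeq2. DESeq2 size factors and limma-trend kept all of these counts within 1.5 times. Leaving out each library gave 0 to 705 genes called, 0 to 15 members called, 3 to 21 members higher and 0 to 2 lower at an unadjusted p under 0.05, a median log2 fold change of 0.010 to 0.230, and 21 to 31 members with separate groups above and 4 to 12 below. The other complement genes then numbered 1 to 4 higher and 2 to 10 lower, the other coagulation genes 1 to 9 higher and 3 to 8 lower, and the difference in the share of counts was -0.061 to 0.891 points. In these fits the lone library of a group is assumed to vary like those of the other group. The shares of all genes with separate groups were not computed for them. The log2 fold changes of C8b, Klkb1 and F11 were 0.78, 0.35 and 0.25 without HFD-KO replicate 1. Without HFD-KO replicate 2 they were 0.57, 0.39 and 0.63. The sign of 11 members differed without HFD-KO replicate 2. Among the fully described members the log2 fold change turned negative for C3 (-0.060), Fga (-0.012) and Fgg (-0.0070), against 0.527, 0.593 and 0.632 without HFD-KO replicate 1. Of 110 pairs of a fully described member and an alternative, 92 kept direction and side of the threshold, 15 passed it and 3 reversed. The causes were not tested.

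The labels give both groups the replicate numbers 1 and 2 and describe no pairing. The deviations of same-numbered libraries correlated at -0.087 across genes and at -0.514 across the members. With the replicate block 20 genes and 0 members were called at an adjusted p under 0.05, with an adjusted p of 0.0925 for C8b. The lowest read count of a member in a library was 56, for Cfd.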

Other observations

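Acute phase proteins outside the list, which hepatocytes secrete in inflammation, were also highest in HFD-KO replicate 2 in most cases. Of 22 genes tested, HFD-KO replicate 2 was the highest library in 19 and HFD-KO replicate 1 the lowest in 16, and both held in 14 (63.6%), against 9.01% of all genes and 8 of the 41 members (19.5%). The median ratio to the HFD-WT mean was 0.855 in HFD-KO replicate 1 and 1.42 in HFD-KO replicate 2, and the summed level was 28021 and 27742 CPM in HFD-WT and 25973 and 37805 CPM in HFD-KO. Lcn2, a secreted lipocalin, was at 103 and 104 CPM in HFD-WT and at 45.3 and 158 CPM in HFD-KO, and Saa1, a serum amyloid A, was at 179 and 156 CPM in HFD-WT and at 115 and 306 CPM in HFD-KO. In these genes the HFD-KO libraries lay on opposite sides of both HFD-WT libraries. Serpina1a and Crp were the 2 genes of the list with an unadjusted p under 0.05, both higher in both HFD-KO libraries. Of all genes, 4.25% were higher at that threshold. Serpina1a and Crp had log2 fold changes of 0.32 and 0.22 and adjusted p of 0.474 and 0.54 by edgeR. Fgl1, a fibrinogen-like protein of hepatocytes, was at 254 and 214 CPM in HFD-WT and at 240.4 and 573 CPM in HFD-KO.

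Of 14 genes of IL-6 and gp130 signalling, Lifr, Bcl3 and Il1rap were higher at an unadjusted p under 0.05 and 0 were lower. The shares over all genes were 4.25% higher and 4.73% lower. Socs3, a feedback inhibitor induced by this pathway, had 12.6 and 9.31 CPM in HFD-WT and 9.04 and 18.1 CPM in HFD-KO, with overlapping groups. Of 24 hepatic transcription factors, 0 were higher and Nr1i2 and Onecut1 were lower at an unadjusted p under 0.05.

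Markers of other cells also differed between the libraries. The plasma and B cell markers, Ighm and Igkc among them, had a median ratio to the HFD-WT mean of 4.82 in HFD-KO replicate 1 and 1.05 in HFD-KO replicate 2. Mzb1, with no read in HFD-WT replicate 2, was left out of these medians. Derl3 of the same list had the reverse order, with ratios of 1.6 and 4.9. The 6 erythroid markers had median ratios of 1.15 and 1.72. Of 10 stellate cell markers 5 were lower at an unadjusted p under 0.05, where 4.73% of all genes were. The summed level of these markers was 555 and 619 CPM in HFD-WT and 502 and 408 CPM in HFD-KO. Their part in the values of the complement and coagulation genes was not tested.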
